A study of Mus musculus with 16 samples.

Results

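The IκB kinases, their relatives and ubiquitin regulators of NF-κB signaling were followed as 10 genes in the transcriptome of mouse bone marrow-derived macrophages (BMDMs). The members were taken by symbol from the 55487 genes of the count table, and all 10 were among the 12372 genes that passed the filter on low counts. There were 6 kinase-side genes (Ikbkb, Chuk, Ikbkg, Ikbke, Tbk1 and Map3k14) and 4 ubiquitin regulators (Tnfaip3, Tnip1, Cyld and Birc3). The macrophages came from 8-week-old wild-type Balb/c mice and formed 6 groups over 16 samples. Cells in plain medium made up DMEM (n = 2), and cells in plain medium with ruxolitinib made up DMEM + Rux (n = 3, dose not given in the labels). Medium conditioned by 4T1 cells, a Balb/c mammary carcinoma line, gave CM (n = 3). CM + Rux (n = 3, labelled 4 h) also received 0.5 μM ruxolitinib, an inhibitor of the kinases JAK1 and JAK2. CM + Rux + IKK-16 (n = 3) received 0.8 μM IKK-16, an IκB kinase inhibitor, in addition. The paper's methods describe serum starvation before CM, with ruxolitinib added during that pre-treatment, and 4 h of treatment for RNA. CM + Rux 2 h (n = 2) carried a label of 2 h, and the labels do not say which step that time refers to. No group received IKK-16 without ruxolitinib, and the labels do not say whether replicates were separate cultures or mice, so the p-values measure the spread between these samples, which may be technical. Each library held 18449388 to 46215853 gene counts. Levels are CPM, the counts of a gene relative to its library's total, scaled between libraries by the relative log expression (RLE) method. A gene was called with a Benjamini-Hochberg adjusted p under 0.05 in edgeR's quasi-likelihood test and a log2 fold change beyond 0.5.

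In resting cells NF-κB dimers are held in the cytoplasm by IκB proteins. Receptors such as those for TNF build ubiquitin chains that recruit a complex of the kinases IKKα (Chuk) and IKKβ (Ikbkb) with the scaffold NEMO (Ikbkg), and this complex phosphorylates IκB and marks it for degradation. TBK1 and IKKε (Ikbke) are related kinases best known for phosphorylating interferon regulatory factors. NIK (Map3k14) drives the non-canonical arm, in which IKKα triggers processing of the NF-κB precursor encoded by Nfkb2. A20 (Tnfaip3) edits and binds the ubiquitin chains with the help of ABIN1 (Tnip1), and CYLD cleaves them. Birc3 encodes cIAP2, a ubiquitin ligase that builds chains on the receptor complex and also takes part in the degradation of NIK. A20 and cIAP2 are textbook products of NF-κB-driven transcription in macrophages.

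Promoter sequences are shown for the 3 members with a RefSeq window that held the κB consensus, the motif that NF-κB dimers bind. A window ran from 250 bases before to 50 bases after the transcription start. They are on GRCm38.p6, a patch release of the genome that the authors aligned to, and run 5′ to 3′ along the gene's strand, with the κB matches of either strand in capitals. The Tnfaip3 window shown was chr10:19015361-19015660, minus strand, the Tnip1 window chr11:54962891-54963190, minus strand, and the Cyld window chr8:88696778-88697077, plus strand. Another RefSeq window of Tnfaip3, chr10:19011914-19012213, held no κB match and is not shown.
Tnfaip3: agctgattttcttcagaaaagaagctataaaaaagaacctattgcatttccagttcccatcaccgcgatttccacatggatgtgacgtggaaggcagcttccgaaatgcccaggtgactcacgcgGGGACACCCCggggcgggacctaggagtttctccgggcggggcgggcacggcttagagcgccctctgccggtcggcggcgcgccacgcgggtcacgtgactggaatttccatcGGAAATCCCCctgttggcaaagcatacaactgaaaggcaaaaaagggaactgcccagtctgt
Tnip1: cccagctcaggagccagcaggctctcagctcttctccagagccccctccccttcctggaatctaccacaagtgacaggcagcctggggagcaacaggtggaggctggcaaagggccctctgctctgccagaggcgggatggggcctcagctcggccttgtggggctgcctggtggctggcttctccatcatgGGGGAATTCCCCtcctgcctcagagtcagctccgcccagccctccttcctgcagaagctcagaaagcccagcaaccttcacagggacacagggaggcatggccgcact
Cyld: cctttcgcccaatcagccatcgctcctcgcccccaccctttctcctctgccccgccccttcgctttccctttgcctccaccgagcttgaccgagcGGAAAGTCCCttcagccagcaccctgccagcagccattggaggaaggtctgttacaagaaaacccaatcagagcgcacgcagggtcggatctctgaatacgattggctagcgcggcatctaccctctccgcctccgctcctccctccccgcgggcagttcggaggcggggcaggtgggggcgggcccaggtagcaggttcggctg
The Tnfaip3 promoter held 2 matches, GGGACACCCC starting at position -125 from the start and GGGGATTTCC, on the other strand, at -12. Tnip1 held 3 overlapping matches from -58, all within the single run of capitals. Cyld held GGGACTTTCC on the other strand at -155. Of the 9 members with an entry, 3 thus held a match, against 5.14% of the 27025 genes in the table. No match was found in the windows of Chuk, Ikbkg, Ikbke, Tbk1, Map3k14 or Birc3. The STAT motif GAS, searched as TTCNNNGAA, was found in the Tnip1 window at -199 and in the Chuk window at -201, and in 9.55% of all genes. A match describes the letters of this window and not binding in these cells. Cyld held a κB match and was called in none of the comparisons below, and Birc3 held none and was called in CM.

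The transcripts of the 10 members were present in every sample, from 27.5 CPM for Map3k14 in a DMEM + Rux sample to 1177 CPM for Tnip1 in a CM + Rux 2 h sample. Levels of different genes were compared per kilobase of the principal transcript. In DMEM the most abundant was Ikbke at 91 ± 12.5 CPM per kilobase (SD, n = 2), followed by Tnip1 at 55.3 ± 16 and Birc3 at 45.3 ± 11.1. The IKK complex came below, with Ikbkb at 29.4 ± 1.12, Chuk at 16.8 ± 1.37 and the scaffold gene Ikbkg at 9.41 ± 0.834 CPM per kilobase. Tnfaip3 stood in the seventh place in DMEM, at 14.8 ± 2.83, with a range that overlapped that of Chuk, and the ranges of Tnip1 and Birc3 overlapped as well. Tbk1 lay between Birc3 and Ikbkb, at 34.3 ± 0.0117 CPM per kilobase. In CM the order was headed by Tnip1 at 269 ± 5.91 CPM per kilobase (SD, n = 3), then Ikbke at 198 ± 18.4, Birc3 at 127 ± 9.45 and Tnfaip3 at 120.05 ± 21.6. The difference between Birc3 and Tnfaip3 in CM was within their SD, as were the differences among Cyld at 9.81 ± 1.1, Map3k14 at 9.6 ± 0.945 and Ikbkg at 9.32 ± 0.686. The order depends on the length used: per kilobase of all annotated exons, Ikbkb, whose exons cover 19078 bases against 3580 in its principal transcript, went from place 5 to place 7 in CM and Tnfaip3 moved from 4 to 2. In DMEM Tnip1 then came first and Ikbke second.

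The comparison of CM with DMEM asks how tumor-conditioned medium changes macrophage transcription. CM raised 3 of the 4 ubiquitin regulators and 3 of the 6 kinase-side genes, and lowered none. Over all genes tested, 20.9% were called higher and 24.1% lower, and of the 10 members 6 were called higher and 0 lower. The median log2 fold change of the members was 0.60, against -0.0050 over all genes. In these bulk samples, fewer cells of a type and less RNA per cell cannot be told apart.

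Tnfaip3 (A20) had 74.2 and 56.4 CPM in the DMEM samples and 44.7, 56.6 and 65.1 CPM in DMEM + Rux. It reached 461, 639.6 and 492 CPM in CM, so every CM sample lay above every sample in plain medium. The mean rose 8.12-fold from DMEM to CM (log2 fold change 3.02, SE 0.23, adjusted p = 1.2e-07). Tnip1, which encodes the A20 partner ABIN1, had 198 and 131 CPM in DMEM, 117, 131 and 134 CPM in DMEM + Rux and 799, 819 and 784 CPM in CM. The CM samples of Tnip1 lay close together, with a coefficient of variation of 2.2%, while those of Tnfaip3 had 18%. Tnip1 rose 4.87-fold (log2 fold change 2.28, SE 0.15, adjusted p = 3.2e-08). Birc3 (cIAP2) had 142 and 99.99 CPM in DMEM, 85.6, 98.7 and 97 CPM in DMEM + Rux and 342, 363 and 313 CPM in CM. It rose 2.8-fold without overlap between the groups (log2 fold change 1.49, SE 0.14, adjusted p = 8.8e-07). Cyld, the deubiquitinase of the same chains, had 64.9 and 60.7 CPM in DMEM and 86, 79.3 and 68.6 CPM in CM. Its CM samples were also all above DMEM, but the difference was under the fold threshold (log2 fold change 0.31, SE 0.12, adjusted p = 0.031).

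**Figure D1:**
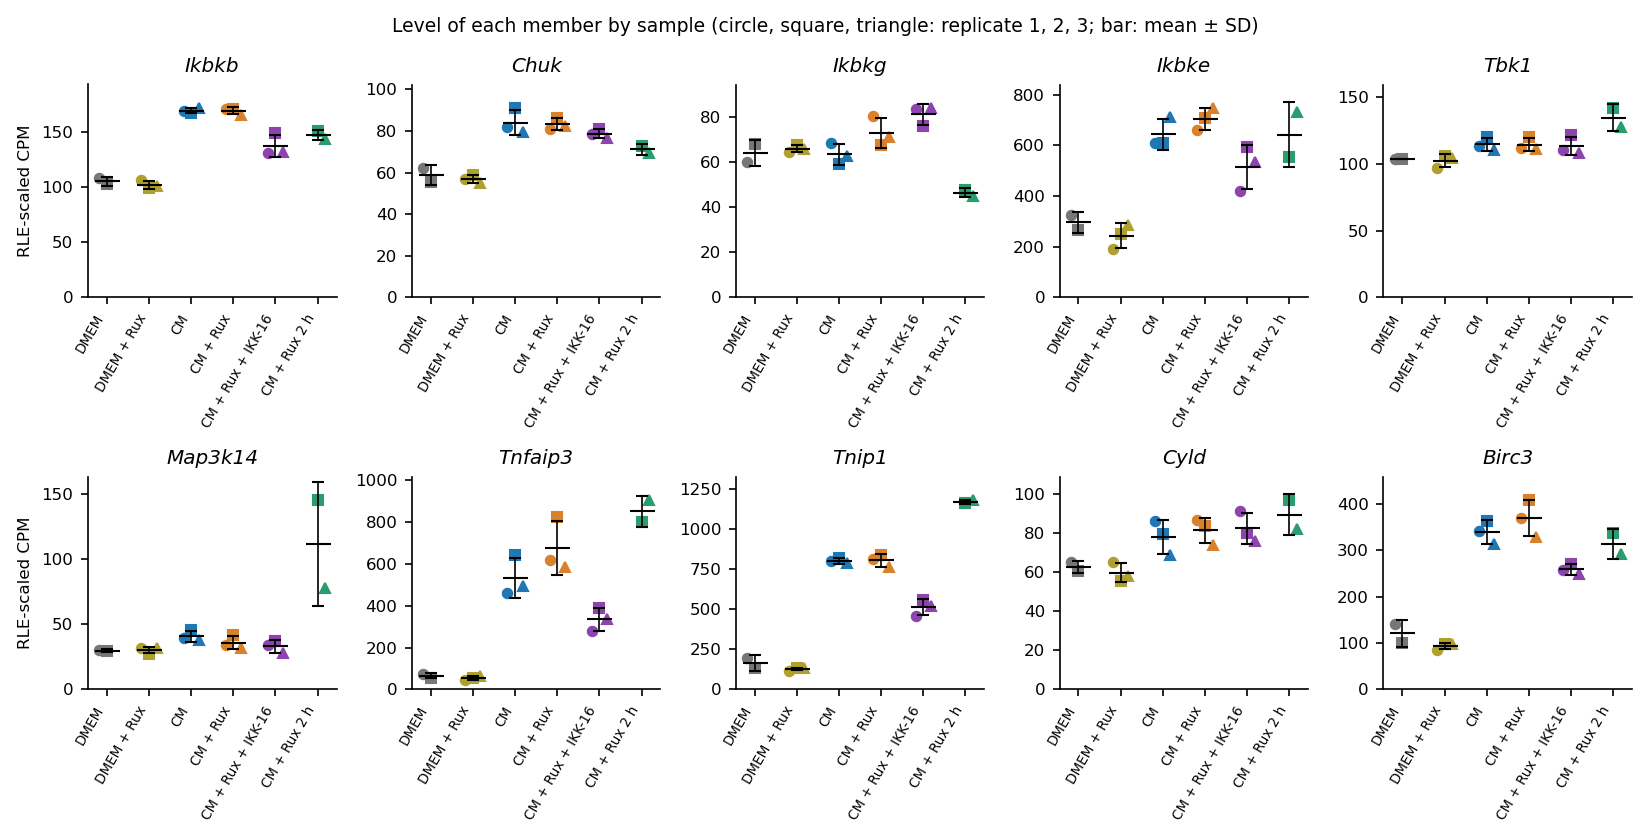
Level of each of the 10 members (vertical axis, RLE-scaled CPM from 0, each panel on its own scale) in the 6 groups; each point is 1 sample with its replicate number as the symbol, and the bars are the mean and SD. Tnfaip3, Tnip1, Birc3, Ikbke, Ikbkb and Chuk sit higher in all CM groups than in both groups in plain medium, and Map3k14 is high in the 2 samples of CM + Rux 2 h.

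Among the kinases, Ikbke had the largest change. It had 325 and 267 CPM in DMEM, 189.9, 252 and 287 CPM in DMEM + Rux and 609, 609 and 713 CPM in CM, a rise of 2.17-fold (log2 fold change 1.12, SE 0.19, adjusted p = 1.3e-04). Its relative Tbk1 had 104 and 104 CPM in DMEM and 114, 120.2 and 111 CPM in CM and was not called (log2 fold change 0.15, SE 0.074, adjusted p = 0.097). The ratio of Ikbke to Tbk1 within a sample went from 2.86 ± 0.392 in DMEM to 5.62 ± 0.724 in CM (SD, n = 2 and 3). Both catalytic subunits of the IKK complex rose by less than Ikbke. Ikbkb had 108 and 103 CPM in DMEM and 169, 168 and 172 CPM in CM (log2 fold change 0.69, SE 0.068, adjusted p = 1.5e-06), and Chuk had 62.3 and 55.5 CPM in DMEM and 81.8, 91 and 79.3 CPM in CM (log2 fold change 0.51, SE 0.075, adjusted p = 4.8e-05). The scaffold gene Ikbkg had 59.8 and 67.8 CPM in DMEM and 68.2, 58.9 and 62.8 CPM in CM. Its groups overlapped, and the approximate 95% interval of the log2 difference ran from -0.19 to 0.16. The intervals given here and below assume a normal distribution with the SE and are narrower than the quasi-likelihood test implies. For Tbk1 in CM vs DMEM the interval was 0.0030 to 0.29, while the unadjusted p of that test was 0.065. Map3k14 (NIK) had 30.4 and 29.3 CPM in DMEM and 39.4, 45.3 and 37.6 CPM in CM and missed the threshold (log2 fold change 0.45, SE 0.21, adjusted p = 0.076).

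The calls of Ikbkb and Chuk in CM depended on the scaling. RLE scaling put the median gene 0.31 higher on the log2 scale than scaling by total counts in CM vs DMEM, and 0.11 lower in CM + Rux + IKK-16 vs CM. With total counts alone the share of called genes that were higher went from 46.4% to 25.0% in CM vs DMEM. Ikbkb and Chuk then kept log2 fold changes of 0.38 and 0.20, under the fold threshold, and Tbk1 turned to -0.16. Cyld went to 0.00046 (adjusted p = 0.998), Map3k14 to 0.14 and Ikbkg to -0.32 (adjusted p = 0.021). Chuk was also under the threshold without CM replicate 2 (0.45) and without DMEM replicate 2 (0.43).

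Ruxolitinib in CM asks what JAK inhibition, begun before the tumor medium was added, does to these genes in macrophages given that medium. The edgeR quasi-likelihood test called 0 of the 10 members, against 1.2% of genes called higher and 2.13% lower. DESeq2 called 0 as well, and 1 member, Ikbkg, had an unadjusted p under 0.05 in both. It was under the fold threshold, while 367 genes higher and 477 lower passed both limits with edgeR. Tnfaip3 had 619, 824 and 585 CPM in CM + Rux, a range that overlapped CM. By replicate number the ratio of CM + Rux to CM was 1.34, 1.29 and 1.19, above 1 in 3 of 3 (log2 fold change 0.35, SE 0.18, adjusted p = 0.396). With the replicate number as a block over all samples the value was 0.35 (adjusted p = 0.198), and in the CM and CM + Rux samples alone with the block it was 0.35 (adjusted p = 2.3e-05), in both fits under the fold threshold. Ikbkg, the NEMO gene, had 80.4, 67.5 and 71 CPM in CM + Rux, with ratios to CM of 1.18, 1.15 and 1.13 (log2 fold change 0.21, SE 0.080, adjusted p = 0.201). Ikbkb at 171, 171 and 166 CPM, Chuk at 80.8, 86.3 and 82.5 CPM and Tbk1 at 112, 119.97 and 111 CPM differed from CM by at most 0.015 on the log2 scale. Their approximate 95% intervals were -0.12 to 0.12 for Ikbkb, -0.14 to 0.12 for Chuk and -0.13 to 0.12 for Tbk1. Tnip1 had 814, 837 and 761 CPM (interval -0.23 to 0.24), Birc3 370.3, 407 and 329 CPM (interval -0.11 to 0.35) and Ikbke 661, 709 and 748 CPM (interval -0.18 to 0.45). Cyld had 86.5, 83.4 and 74 CPM and Map3k14 34.2, 41.6 and 31.8 CPM, with intervals of -0.14 to 0.26 and -0.54 to 0.18. The intervals of these 8 genes, from the fit without the block, all included 0. In the CM and CM + Rux samples alone with the block, Ikbkg (0.20, adjusted p = 0.0023), Ikbke (0.13, adjusted p = 0.012), Birc3 (0.12, adjusted p = 0.018) and Map3k14 (-0.18, adjusted p = 0.015) passed the adjusted p and stayed under the fold threshold. With the block over all samples their adjusted p ran from 0.108 for Ikbkg to 0.592 for Birc3.

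In plain medium ruxolitinib gave no called member either, against 0% of genes called higher (50 had an unadjusted p under 0.05 beyond the fold threshold) and 0.97% lower. DESeq2 also called 0, and 2 members, Tnip1 and Birc3, had an unadjusted p under 0.05 with both tools. Both were under the fold threshold, while 246 genes were lower within both limits with edgeR. Tnip1 had a log2 fold change of -0.37 (SE 0.13, adjusted p = 0.639) and Birc3 of -0.37 (SE 0.13, adjusted p = 0.626). The pairs of samples with the same replicate number differed here: the ratio of DMEM + Rux to DMEM was 0.591 and 1.003 for Tnip1 and 0.603 and 0.987 for Birc3. DMEM replicate 1 was the highest of the 5 samples in plain medium for Tnfaip3, Tnip1, Birc3 and Ikbke. Without DMEM replicate 2, which left replicate 1 as the lone DMEM sample, Tnip1 and Birc3 were called lower (-0.64, adjusted p = 0.012, and -0.60, adjusted p = 0.048). Without DMEM replicate 1 the differences were -0.041 for Tnip1 and -0.094 for Birc3, so both rested on that library. The ruxolitinib effect in CM was then compared with that in plain medium by an interaction term. It called 0 members, against 0.234% of genes higher and 0.178% lower. DESeq2 called 0 too, and the unadjusted p was under 0.05 for 2 members with edgeR and for 3 with DESeq2. Beyond the fold threshold it was 1 member with each tool, against 433 genes higher and 309 lower with edgeR. Birc3 had the smallest p, with a difference of 0.49 on the log2 scale (SE 0.18, adjusted p = 0.339). Tnip1 had a difference of 0.046 without DMEM replicate 1 and passed without DMEM replicate 2 (0.64, adjusted p = 0.049) against 0.38 (adjusted p = 0.581) with all samples.

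IKK-16 on top of ruxolitinib asks which transcripts change when an inhibitor of the kinases encoded by Ikbkb and Chuk is added. It lowered 3 of the 4 ubiquitin regulators, Tnfaip3, Tnip1 and Birc3, and called none of the 6 kinase-side genes. In this comparison 3.66% of all genes were called lower and 4.07% higher, and 3 of the 10 members were called lower. The median log2 fold change was -0.21 over the members and -0.0019 over all genes. The 3 regulators that fell with IKK-16 were among the 6 members that rose in CM, and such an overlap was not counted over all genes. The contrasts CM + Rux + IKK-16 vs CM + Rux and CM vs DMEM share no samples but are not independent. They came from 1 model, and deviations from group means correlated between same-numbered samples of CM and CM + Rux (0.433 to 0.621).

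Tnfaip3 went from 619, 824 and 585 CPM in CM + Rux to 277, 388 and 336 CPM in CM + Rux + IKK-16, without overlap. By replicate number the ratio was 0.448, 0.471 and 0.574, and the mean fell by 2.03-fold (log2 fold change -1.02, SE 0.18, adjusted p = 0.0026). Tnip1 had 457, 556 and 519.98 CPM with IKK-16, with ratios of 0.561, 0.664 and 0.683 (log2 fold change -0.65, SE 0.12, adjusted p = 0.0034). Birc3 had 258, 269.96 and 248 CPM with IKK-16, with ratios of 0.697, 0.663 and 0.753 (log2 fold change -0.51, SE 0.12, adjusted p = 0.011). The Birc3 call sat at the fold threshold. It was -0.497 with TMM factors, -0.49993 in the groups compared alone, -0.43 with total counts, -0.44 without CM + Rux replicate 2 and -0.48 without CM + Rux + IKK-16 replicate 3, with adjusted p from 0.012 to 0.046 in these fits. In the groups compared alone with the replicate block it was -0.496 (adjusted p = 8.0e-06). Cyld overlapped between the groups, at 91.2, 80.1 and 75.9 CPM with IKK-16 (interval -0.18 to 0.22). The levels with IKK-16 lay above those of plain medium. The lowest IKK-16 sample had 277 CPM of Tnfaip3, 457 of Tnip1 and 248 of Birc3. The highest DMEM sample had 74.2, 198 and 142 CPM.

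**Figure D2:**
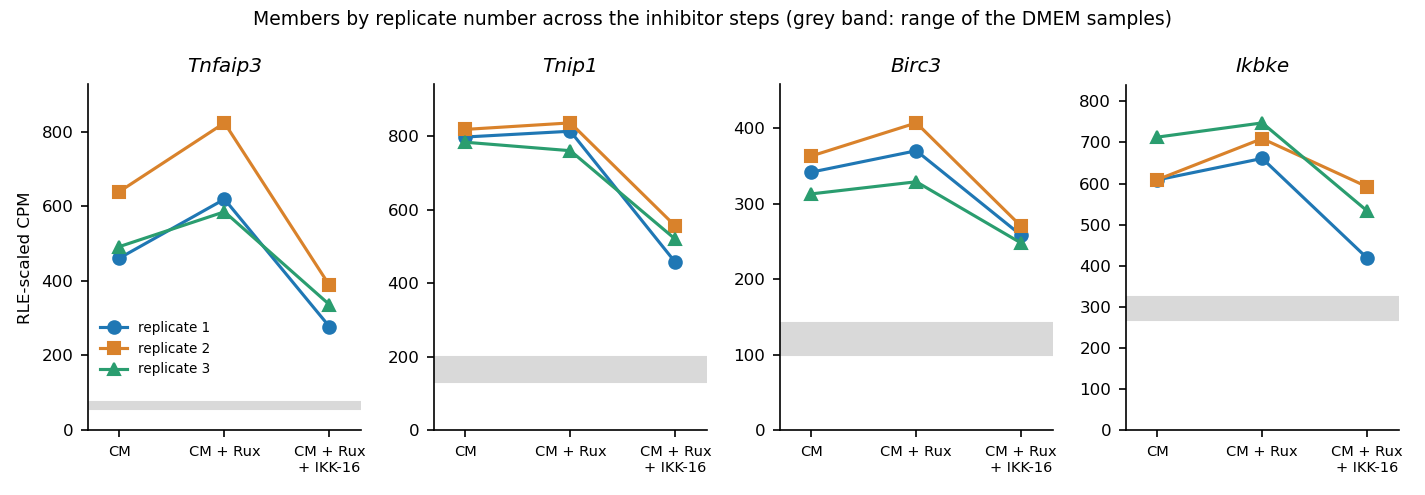
Levels of Tnfaip3, Tnip1, Birc3 and Ikbke (vertical axis, RLE-scaled CPM from 0) in CM, CM + Rux and CM + Rux + IKK-16; each line joins samples with the same replicate number, and the grey band spans the 2 DMEM samples. In all 3 replicates the 4 genes are lower with IKK-16 than with ruxolitinib alone and stay above the DMEM band.

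Of the kinases, Ikbkb, which like Chuk encodes a target of IKK-16, had 131, 149 and 132 CPM with IKK-16 against 171, 171 and 166 CPM in CM + Rux. All 3 samples were lower, and the difference passed the adjusted p but was under the fold threshold (log2 fold change -0.30, SE 0.060, adjusted p = 0.0048). Ikbke had 418, 592 and 533 CPM with IKK-16, also below each CM + Rux sample, and missed the adjusted p in this fit (log2 fold change -0.46, SE 0.16, adjusted p = 0.074). It passed the adjusted p, under the fold threshold, with DESeq2 (adjusted p = 0.038), the likelihood ratio test (adjusted p = 0.043) and the replicate block (adjusted p = 0.014). Without CM + Rux + IKK-16 replicate 2 it was called lower (-0.57, adjusted p = 0.048). Chuk had 78.6, 80.8 and 76.4 CPM, Tbk1 111, 121 and 108 CPM and Map3k14 34.4, 37.2 and 27.8 CPM with IKK-16, and each overlapped CM + Rux. Their intervals were -0.21 to 0.047, -0.14 to 0.11 and -0.48 to 0.24. Ikbkg had 83.4, 75.8 and 83.8 CPM with IKK-16 (interval -0.0052 to 0.31). The ratio of Ikbkb to Chuk within a sample was 1.79 ± 0.0771 in DMEM, 2.03 ± 0.167 in CM, 2.04 ± 0.0731 in CM + Rux and 1.75 ± 0.0907 in CM + Rux + IKK-16 (SD).

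Set against CM without inhibitors, the combination of ruxolitinib and IKK-16 called 2 members lower, Tnfaip3 (log2 fold change -0.67, SE 0.18, adjusted p = 0.016) and Tnip1 (log2 fold change -0.65, SE 0.12, adjusted p = 0.0018). In this comparison 6.13% of all genes were called lower and 6.6% higher, and its IKK-16 samples are those of the previous comparison. The Tnfaip3 call did not hold without CM replicate 2 (adjusted p = 0.080) or without CM + Rux + IKK-16 replicate 1 (adjusted p = 0.080). By the adjusted p alone, which 23.1% of all genes passed, 5 members differed: Birc3 (log2 fold change -0.39, SE 0.12, adjusted p = 0.029), Ikbkb (log2 fold change -0.30, SE 0.060, adjusted p = 0.0027) and Ikbkg (log2 fold change 0.36, SE 0.080, adjusted p = 0.0059) as well as the pair named. Of these 5 Ikbkg alone was higher with the inhibitors, in each of the 3 samples.

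**Figure D3:**
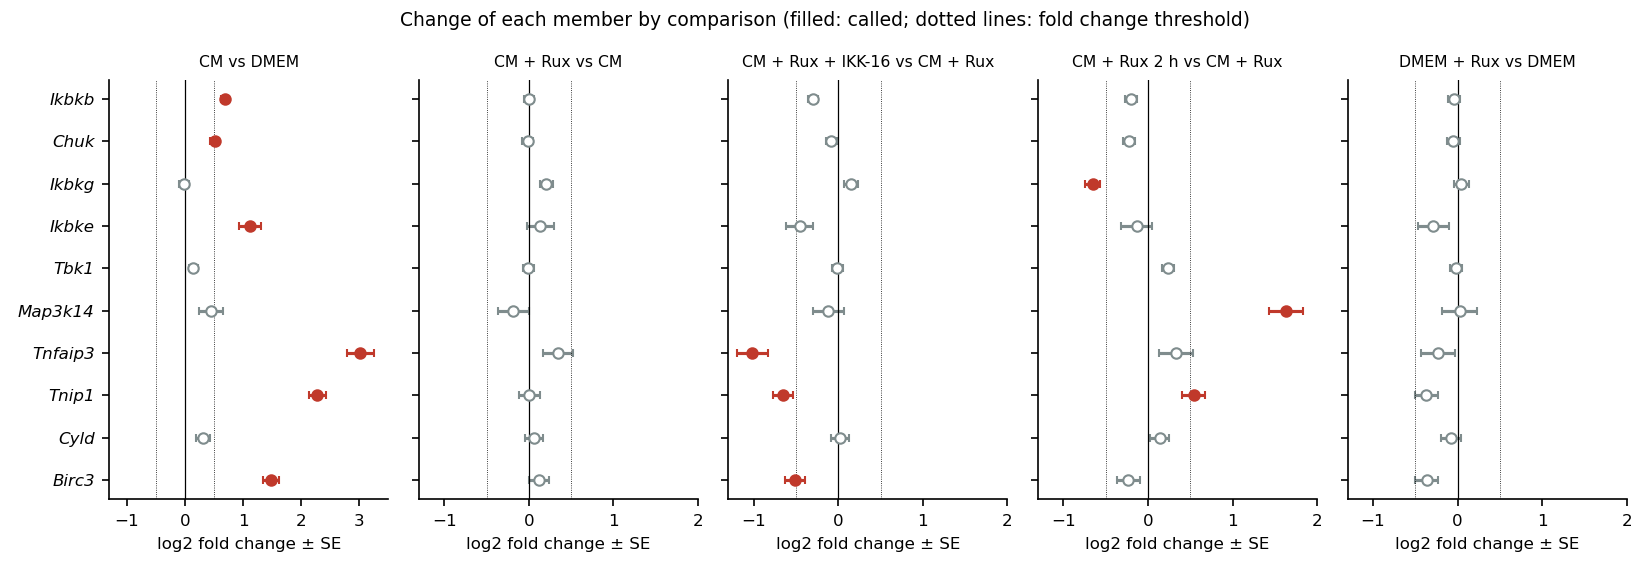
Log2 fold change of each member (horizontal axis, with bars of 1 SE) in 5 comparisons, with the members in rows; filled points were called, and dotted lines mark the fold threshold of 0.5 in each direction. Tnfaip3, Tnip1 and Birc3 are called higher in CM vs DMEM and lower with IKK-16, no member is called with ruxolitinib, and Map3k14 is the farthest from 0 in CM + Rux 2 h vs CM + Rux.

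The samples labelled 2 h were compared with CM + Rux, which is labelled 4 h. Among the members they differed most in Map3k14, the NIK gene, which had 145 and 77.8 CPM in the 2 samples against 34.2, 41.6 and 31.8 CPM in CM + Rux. Both lay above every sample of the other 5 groups and far from each other. The mean was 3.11-fold higher (log2 fold change 1.64, SE 0.20, adjusted p = 3.9e-05). The SE draws on the spread of all groups, while these 2 samples, replicates 2 and 3, had a coefficient of variation of 42.7%. Leaving out 1 library at a time gave log2 fold changes of 1.11 to 2.01. Tnip1 was higher as well, at 1160.04 and 1177 CPM (log2 fold change 0.54, SE 0.13, adjusted p = 0.0060), a call that total-count scaling put under the fold threshold (0.47). Ikbkg was lower, at 47.7 and 44.9 CPM against 80.4, 67.5 and 71 CPM in CM + Rux (log2 fold change -0.65, SE 0.092, adjusted p = 1.1e-04), and also lay below every sample of the other groups. In all, 12.6% of genes were called higher and 10.7% lower, so 2 members higher and 1 lower are near the background. By the adjusted p alone 6 members passed, against 38.2% of genes, adding Tbk1 at 142 and 127 CPM (log2 fold change 0.23), Ikbkb at 151 and 144 CPM (-0.20) and Chuk at 73 and 69.2 CPM (-0.23). Tnfaip3 had 797 and 902 CPM (interval -0.061 to 0.72) and Ikbke 553 and 733 CPM (interval -0.49 to 0.22). Birc3 had 337 and 291 CPM and Cyld 96.7 and 81.9 CPM, both overlapping CM + Rux. The dendritic cell marker Zbtb46 was also highest in these samples, where the summed markers of that cell type were 8.04 to 12.3 CPM against at most 2.14 CPM elsewhere, while Flt3, Clec9a and Xcr1 stayed at or under 0.246 CPM. Their part in the result was not tested.

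The other genes of the pathway were taken as 5 lists with 58 genes, of which 57 were measured above the filter. In CM vs DMEM 27 of the 57 rose and 5 fell, against 20.9% and 24.1% of all genes (median log2 fold change 0.46). Among the 18 other brakes 13 rose and 2 fell. The largest rise was in Zc3h12a, the gene of an RNase that degrades inflammatory mRNAs, from 39.7 ± 5.78 CPM in DMEM to 538 ± 55 CPM in CM (log2 fold change 3.76, SE 0.14, adjusted p = 8.8e-10). Nfkbia, which encodes IκBα, was among them at 2.61 on the log2 scale. The largest fall was in Usp18, an interferon-induced protease gene (log2 fold change -1.02, SE 0.32, adjusted p = 0.014). Its samples varied widely, at 34 ± 16.6 CPM in DMEM and 16.5 ± 8.29 CPM in CM. In the receptor-proximal canonical arm 8 of 17 rose and 2 fell. Tnfrsf1b, the gene of the second TNF receptor, rose to 5499.5 ± 124 CPM from 891 ± 132 CPM (log2 fold change 2.63, SE 0.11, adjusted p = 1.0e-09), and Irak1, a kinase of Toll-like receptor signaling, fell (log2 fold change -0.66, SE 0.061, adjusted p = 6.5e-07).

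In the non-canonical arm, upstream and downstream of Map3k14, 4 of 8 rose in CM and none was called lower, against 20.9% and 24.1% of all genes. The receptor gene Cd40 rose from 8.36 ± 2.51 CPM to 187 ± 27.7 CPM (log2 fold change 4.47, SE 0.35, adjusted p = 1.5e-07). The adaptors and substrates of TBK1 and IKKε had 2 of 9 called higher, near the share of all genes called higher, and none lower. Ticam1, the adaptor TRIF, had the larger rise (log2 fold change 0.63, SE 0.11, adjusted p = 2.6e-04). In the linear ubiquitin arm 1 of 5 was called lower, near the share of all genes called lower. It was Otulin, which encodes a deubiquitinase of linear chains (log2 fold change -0.65, SE 0.13, adjusted p = 6.1e-04).

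With IKK-16 over CM + Rux 10 of the 57 fell, against 3.66% of all genes (median log2 fold change -0.19). With edgeR and with DESeq2 0 were called higher, against 4.07% of all genes with edgeR, and 4 of those higher had an unadjusted p under 0.05. The 10 called lower were 5 of the other brakes, 3 of the non-canonical arm and 2 of the canonical arm. Tnip3, which encodes another ABIN protein, had the largest fall among the brakes, from 289.9 ± 14.1 CPM to 129 ± 11.1 CPM (log2 fold change -1.16, SE 0.12, adjusted p = 7.0e-05), and Nfkbia, Bcl3, Nfkbib and Irak3 fell too. Cd40 had the largest fall of the non-canonical arm, to 56.8 ± 16.6 CPM (log2 fold change -1.73, SE 0.25, adjusted p = 7.3e-04), beside Nfkb2 and Tnfrsf11a. In the canonical arm these were Tab2, an adaptor of the kinase TAK1 (log2 fold change -0.56, SE 0.067, adjusted p = 2.1e-04), and Birc2, the gene of cIAP1 (log2 fold change -0.55, SE 0.10, adjusted p = 0.0030). With total counts alone the share of called genes that were higher in this comparison went from 52.7% to 67.5%, and from 51.9% to 68.1% against CM.

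**Figure D4:**
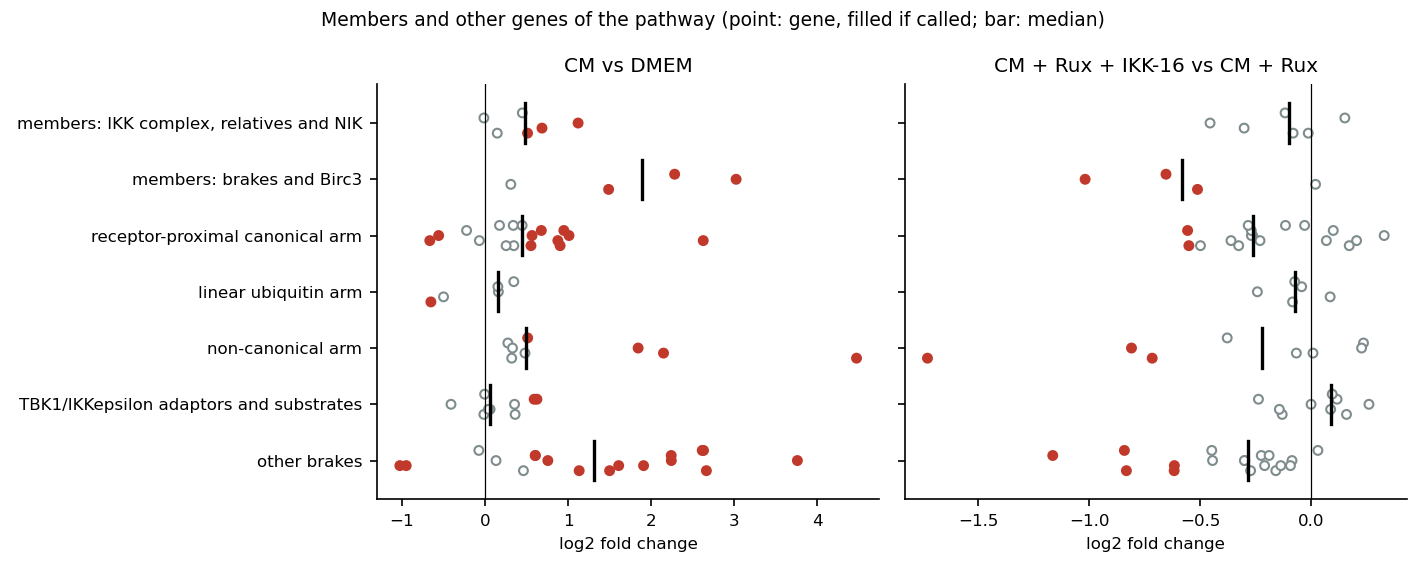
Log2 fold change (horizontal axis) of the members in their 2 roles and of the 5 lists of other pathway genes (rows) in CM vs DMEM and in CM + Rux + IKK-16 vs CM + Rux; each point is a gene, filled if called, and the bar is the median. In CM 27 of the 57 other genes are called higher and 5 lower, and with IKK-16 the 10 that are called are all lower.

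Ruxolitinib in CM called 2 of the 57 higher and 4 lower, against 1.2% and 2.13% of all genes. The lower ones were Irf7 (log2 fold change -1.41, SE 0.23, adjusted p = 0.0025) and Sting1 (Tmem173 in the names table) among the TBK1 and IKKε adaptors and substrates, and Usp18 (log2 fold change -3.25, SE 0.35, adjusted p = 1.2e-04) and Trim30a among the other brakes, and Irf7, Usp18 and Trim30a are known interferon-induced genes. The higher ones were Traf5, a TNF receptor adaptor gene (log2 fold change 0.67, SE 0.11, adjusted p = 0.0024), and Sqstm1, which encodes the ubiquitin-binding protein p62 (log2 fold change 0.66, SE 0.18, adjusted p = 0.048). In DMEM + Rux vs DMEM 4 of the 57 were called lower, against 0.97% of all genes. Called higher were 0 with edgeR and 0 with DESeq2, and 0 of those higher had an unadjusted p under 0.05. The largest fall of each list with a call, 1 gene per list, was that of Usp18 (-2.89 on the log2 scale), Irf7 (-1.55) and Rnf31 (-0.67), a subunit gene of the linear ubiquitin ligase. Against CM, ruxolitinib with IKK-16 called 16 lower, against 6.13% of all genes, and 1 higher, Sqstm1 (0.69). The largest fall of each list with a call, 1 gene per list, was that of Usp18 (-3.39), Cd40 (-1.72), Irf7 (-1.15), Rnf31 (-0.70) and Tnfrsf1a (-0.70). In CM + Rux 2 h vs CM + Rux 13 were called higher and 3 lower, against 12.6% and 10.7% of all genes. The largest rise of each list, 1 gene per list, was that of Optn (1.04), Sqstm1 (0.99), Tnfrsf12a (0.83), Otulin (0.71) and Birc2 (0.54), and the falls were Irak3 (-1.29), Tab1 (-0.86) and Ltbr (-0.54). The interaction called 0 of the 57 with edgeR and 3 with DESeq2, which over all genes called 147 higher and 87 lower. With edgeR 14 higher and 5 lower had an unadjusted p under 0.05. Beyond the fold threshold these were 8 and 1, against 433 and 309 of the 12372 genes.

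Across the 16 samples Tnfaip3, Tnip1, Birc3 and Ikbke were higher in all CM groups than in plain medium. Their order among the CM groups differed. The mean of CM + Rux 2 h was the highest for Tnfaip3 (849 CPM) and Tnip1 (1169 CPM). For Birc3 (314 CPM) and Ikbke (643 CPM) it was below that of CM + Rux (369 and 706 CPM). As a description of samples that share their groups, the Pearson correlation of log2 CPM was 0.99 between Tnfaip3 and Tnip1, 0.97 between Tnfaip3 and Birc3 and 0.96 between Tnfaip3 and Ikbke. Ikbkg had its lowest correlations with Map3k14 (-0.75) and Tbk1 (-0.51), and lay between -0.21 and 0.18 with the other 7. The tested genes most like Tnfaip3, the ubiquitin regulator with the widest range of group means (3.95 on the log2 scale), were Nfkbia (0.996), Chic2 (0.995) and Gadd45b (0.995) over 16 samples. For Map3k14, the kinase with the widest range (1.83), they were Dot1l (0.949), Prag1 (0.933) and Lemd3 (0.931).

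The samples carried macrophage markers throughout, with all 8 of the list above 1 CPM and a summed level of 40148 to 57183 CPM per sample. Lyz2 was the largest part of that sum, at 28541.5 to 38035.6 CPM, and Cd14 ranged from 1407 to 15920 CPM. The 5 epithelial markers, which would mark 4T1 cells, summed to 0.692 to 1.45 CPM in CM and at most 0.836 CPM in every other group, with Krt14 at 0 in all samples and Epcam at most 0.117 CPM. Of the neutrophil list 1 of 6, Mmp8, exceeded 1 CPM, with Ly6g at 0, and the list summed to 7.43 to 8.18 CPM in CM against 2.04 to 3.27 CPM in DMEM. The T and NK cell list summed to 4.81 to 13.1 CPM, nearly all of it Cd4, and the B cell list to 0.122 to 1.23 CPM. The fibroblast list summed to 5.74 to 20.9 CPM. The epithelial and neutrophil sums were higher in each CM sample than in each DMEM sample, and their part in the results was not tested.

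The exons of 2 members overlapped genes of the opposite strand, Ikbkg with G6pdx over 418 bases and Ikbke with Gm28914 and Gm28913 over 159 and 65 bases, and the authors' counts were strand-specific. Map3k14 shared 135 exon bases with 1700028N14Rik on its own strand. On GRCm38 the genes with called changes lie on several chromosomes: Tnfaip3 (ENSMUSG00000019850) at chr10:19000910-19015657, Tnip1 (ENSMUSG00000020400) at chr11:54910785-54962917, Birc3 (ENSMUSG00000032000) at chr9:7848699-7873186, Ikbke (ENSMUSG00000042349) at chr1:131254343-131279606, Ikbkb (ENSMUSG00000031537) at chr8:22659212-22706589, Chuk (ENSMUSG00000025199) at chr19:44073335-44107480, Map3k14 (ENSMUSG00000020941) at chr11:103219762-103267472 and Ikbkg (ENSMUSG00000004221) at chrX:74393290-74453854.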

How the data were processed

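Raw gene counts were deposited. The authors trimmed reads with Trimmomatic 0.33, aligned them to GRCm38 with HISAT2 2.1.0 and counted fragments strand-specifically with featureCounts 1.6.2 on Ensembl 100, at a mapping quality of at least 10. Symbols were matched by gene ID to a GENCODE M21 table (55141 of 55487 IDs). A gene was kept if 2 or more samples exceeded 1 CPM. Counts were scaled by RLE, as in the study's methods, and all 16 samples were fitted with edgeR 4.0.16 in 1 quasi-likelihood model of the 6 groups, without covariates. Alternatives were DESeq2 1.42.0, likelihood ratio tests, TMM or total-count scaling, other filters, only the groups compared, a replicate block and leaving out each library. Fits were tested on simulated data.

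The members and lists were chosen with earlier results of these data known. Text names all 10 members, the largest called rise and fall of each list, and the 3 genes most like the widest-ranging member of each role by Pearson correlation; other genes were named after their values were seen. In comparisons with 3 same-numbered pairs, deviations from group means correlated within pairs (0.391 to 0.631); the labels do not say what a number shares. RefSeq promoters covered 9 of 10 members.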

Additional observations from a re-analysis of the deposited data

How the results depend on the processing

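The lowest count of a member in any library was 625. The 3 ubiquitin regulators called in CM vs DMEM and in CM + Rux + IKK-16 vs CM + Rux kept their direction under every alternative run, and Tnfaip3 and Tnip1 kept their calls in both. Tnfaip3 ranged from -1.14 to -0.85 with IKK-16. The counts of members called stayed within 1.5 times the main count except in these cases. For CM + Rux + IKK-16 vs CM, 5 members were called by the adjusted p alone, and leaving out 1 library gave 1 to 2. For DMEM + Rux vs DMEM leaving out 1 library gave 0 to 2, and for the interaction 0 to 1. For CM + Rux 2 h vs CM + Rux 6 were called by the adjusted p alone. With the replicate number as a block, Map3k14 was called in CM vs DMEM (log2 fold change 0.53, adjusted p = 0.012), and the block over all samples changed no other member's call. Over all genes it raised the calls to 305 higher and 440 lower in CM + Rux vs CM and to 247 and 197 in the interaction. Where a library was left out of a group of 2, the lone sample was assumed to vary like the other groups.

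The direction changed in the following results, none of them called, and the cause was not tested. With total counts alone, the log2 fold change was -0.16 for Tbk1 in CM vs DMEM, and 0.021 for Ikbkb, 0.0097 for Chuk and 0.018 for Tbk1 in CM + Rux vs CM, and 0.0042 for Chuk and 0.072 for Tbk1 in CM + Rux + IKK-16 vs CM + Rux, and 0.014 for Chuk and 0.090 for Tbk1 in CM + Rux + IKK-16 vs CM. With TMM factors, the log2 fold change was 0.0010 for Tbk1 in CM + Rux + IKK-16 vs CM + Rux. With the replicate block, the log2 fold change was 0.0013 for Tbk1 in DMEM + Rux vs DMEM, and -0.0060 for Tbk1 in the interaction. With the replicate block in the groups compared alone, the log2 fold change was -0.022 for Map3k14 in DMEM + Rux vs DMEM. Leaving out 1 library at a time gave log2 fold changes of -0.10 to 0.080 for Ikbkg in CM vs DMEM. The values were -0.0093 to 0.014 for Ikbkb, -0.055 to 0.047 for Chuk, -0.039 to 0.030 for Tbk1, -0.022 to 0.045 for Tnip1 and -0.022 to 0.14 for Cyld in CM + Rux vs CM. The values were -0.065 to 0.018 for Tbk1, -0.21 to 0.00072 for Map3k14 and -0.061 to 0.075 for Cyld in CM + Rux + IKK-16 vs CM + Rux. The values were -0.070 to 0.015 for Tbk1 and -0.0050 to 0.15 for Cyld in CM + Rux + IKK-16 vs CM. The values were -0.13 to 0.034 for Chuk, -0.045 to 0.14 for Ikbkg, -0.041 to 0.021 for Tbk1 and -0.018 to 0.094 for Map3k14 in DMEM + Rux vs DMEM. The values were -0.050 to 0.11 for Chuk and -0.027 to 0.047 for Tbk1 in the interaction. The values were -0.35 to 0.049 for Ikbke in CM + Rux 2 h vs CM + Rux.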
